A study of Mus musculus with 6 samples.

Results

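Immediate early response genes are switched on within minutes when a cell is stimulated or stressed, from transcription factors and kinases already present and without new protein synthesis. The list examined here holds 10 of them, Fos, Fosb, Jun, Junb, Egr1, Ier2, Atf3, Dusp1, Zfp36 and Nr4a1, taken by the gene symbol of the array platform. Of the 10, 8 had a named probe, with 1 probe each, and these 8 were among the 10523 genes tested. Ier2, a nuclear protein induced by growth factors, and Nr4a1, an orphan nuclear receptor, had no named probe and are not analysed here. A gene entered the test if a probe had a detection p under 0.05 on at least 3 of the 6 arrays. Fosb passed on 5 arrays and the other 7 genes on all 6.

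RNA came from B16 melanomas, tumors of a mouse melanoma cell line, each grown for 8 days in C57BL/6 mice, the strain from which the line derives, after an inoculum of 400000 cells. The groups were 3 large tumors (70 to 80 mm2) and 3 small tumors (10 to 20 mm2), with no other treatment or genotype named. Each tumor was cut away from neighbouring normal tissue, and 100 ng of total RNA was put through 2 cycles of linear amplification and read on 1 Illumina bead array. Nothing in the labels says which replicates came from separate mice or inoculations, so a p-value here reflects only how far these 6 samples scatter, which may be technical. The tumors were harvested whole, so a lower signal from fewer cells of a type and one from less RNA per cell cannot be told apart.

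The signals of growth factor receptors, cytokine receptors and stress reach these genes through the MAP kinases ERK, JNK and p38, which activate factors bound at their promoters. Fos and Jun proteins pair to form AP-1, Egr1 activates a further set of targets, and Dusp1 and Zfp36 end the response by inactivating the kinases and by destroying the messages. In melanoma cells the ERK branch is often constantly active. The same genes are induced in leukocytes, fibroblasts and endothelium, and while tissue is being excised and handled.

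Promoter sequences are shown because the listed genes share a mode of induction, and the control elements can be compared directly. Promoters of 8 of the 10 listed genes were matched in RefSeq (GRCm38.p6), all but Egr1 and Ier2. These are not the 8 genes tested, since Nr4a1 has a promoter here but no named probe, and Egr1 the reverse. The 250 bases before the annotated start are printed for an AP-1 subunit of each family, for the phosphatase and for the RNA decay factor. Fos lies on the plus strand (chr12:85473640-85473889), and Junb (chr8:84978749-84978998), Dusp1 (chr17:26508473-26508722) and Zfp36 (chr7:28379229-28379478) lie on the minus strand. Capitals mark TGACG, the core of the cyclic AMP response element (CRE) bound by CREB and ATF proteins, GCGNGGGCG, the site of Egr1 and its relatives, and the CArG box, the site of serum response factor, on either strand.
Fos: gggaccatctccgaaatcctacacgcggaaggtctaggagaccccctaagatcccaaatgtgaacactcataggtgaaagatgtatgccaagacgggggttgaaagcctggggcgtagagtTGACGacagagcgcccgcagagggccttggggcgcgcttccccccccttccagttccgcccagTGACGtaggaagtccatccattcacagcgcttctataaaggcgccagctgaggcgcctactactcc
Junb: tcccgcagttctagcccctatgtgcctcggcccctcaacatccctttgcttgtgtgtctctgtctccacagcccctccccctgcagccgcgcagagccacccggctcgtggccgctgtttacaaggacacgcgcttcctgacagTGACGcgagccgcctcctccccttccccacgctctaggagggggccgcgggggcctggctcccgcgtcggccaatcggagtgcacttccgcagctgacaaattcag
Dusp1: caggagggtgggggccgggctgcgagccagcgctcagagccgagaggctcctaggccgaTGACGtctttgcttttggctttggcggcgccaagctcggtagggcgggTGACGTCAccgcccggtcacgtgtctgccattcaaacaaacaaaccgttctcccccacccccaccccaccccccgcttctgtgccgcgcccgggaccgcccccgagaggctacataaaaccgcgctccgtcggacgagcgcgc
Zfp36: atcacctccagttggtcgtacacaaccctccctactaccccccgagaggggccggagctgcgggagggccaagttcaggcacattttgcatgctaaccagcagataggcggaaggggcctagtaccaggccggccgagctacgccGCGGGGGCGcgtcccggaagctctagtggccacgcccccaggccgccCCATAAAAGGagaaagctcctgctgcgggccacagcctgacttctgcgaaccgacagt

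Of the 8 matched promoters, 6 held TGACG in a window from 250 bases before to 50 after the start (Fos, Fosb, Junb, Atf3, Nr4a1 and Dusp1), against 20.8% of 32851 RefSeq promoter windows of that length. The full element TGACGTCA was in the Dusp1 promoter alone, where its letters also hold the core on both strands, against 1.79% of all windows. GCGNGGGCG was found in 3 (Fosb, Nr4a1 and Zfp36) against 5.55%. A CArG box was found in 1 (Zfp36, in capitals nearest the start above, where its letters also hold a TATA-like run) against 1.63%. The AP-1 site TGANTCA was in 0 of the 8 windows against 7.81% of all windows. The windows were searched on both strands, and a match is a run of letters, not evidence of binding. Sites outside the window or spelled otherwise were not searched for, so a missing match does not show that a gene lacks the site.

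No immediate early gene passed the test between large and small tumors, but the 8 genes did not all behave alike. Egr1 and Zfp36 were lower in each large tumor than in any small one, by 1.75-fold and 1.64-fold in the means, and Junb was 1.60-fold lower in the mean with overlapping groups. Fos, the classical member, had the only positive difference, and Jun and Atf3 had differences near 0. The 8 genes varied more among tumors of 1 size than most genes did. By limma, 0 of the 8 were called at an adjusted p under 0.05, where 2.47% of all genes were called and 1.68% were called lower in large tumors. At an unadjusted p under 0.05, 3 of the 8 were lower in large tumors (37.5%), against 10.2% of all genes. The list was chosen with earlier results of these data known, so such contrasts with all genes are not a test. The difference was negative in 7 of the 8, against 50.1% of all genes. The median log2 difference (large minus small) was -0.43 over the 8 genes and -0.000957 over all genes tested.

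**Figure D1:**
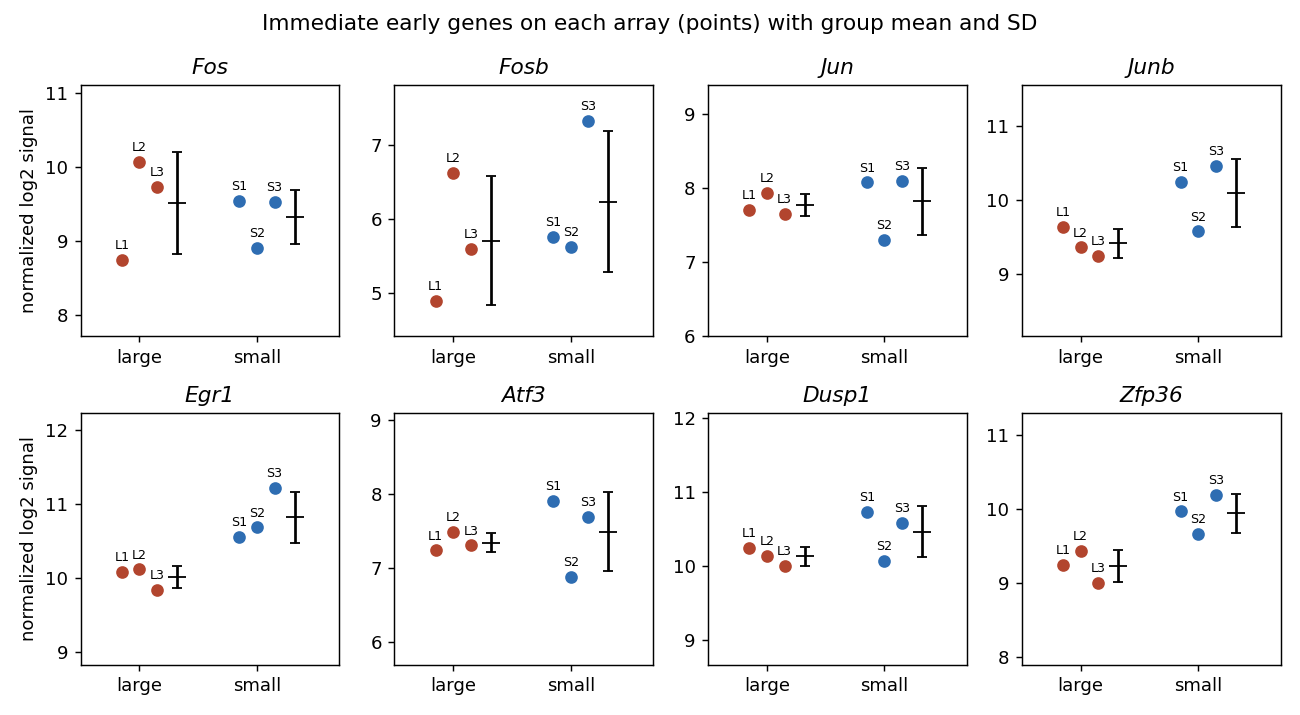
Normalized log2 signal (vertical axis, every panel spanning the same number of log2 units) of 8 immediate early genes in large (L1 to L3) and small (S1 to S3) tumors, with points for arrays and a bar for the group mean and SD. The groups do not overlap for Egr1 and Zfp36, and they overlap for the other 6 genes.

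Egr1 is a zinc finger transcription factor and among the first genes transcribed after ERK activation. Its normalized log2 signal was 10.08, 10.12 and 9.84 in large replicates 1 to 3 and 10.56, 10.68 and 11.22 in small replicates 1 to 3. All small tumors were above all large tumors, and small replicate 3 stood highest. The means were 10.01 ± 0.15 (SD, n = 3) in large and 10.82 ± 0.35 (SD, n = 3) in small tumors. The log2 difference was -0.81 ± 0.19 (SE, 95% interval -1.26 to -0.35), which was not called (limma adjusted p = 0.0802).

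Zfp36 encodes tristetraprolin, which binds AU-rich elements of cytokine messages and brings about their decay. Its log2 signal was 9.25, 9.44 and 9.005 in large tumors and 9.97, 9.67 and 10.20 in small ones. The groups were again apart, with large replicate 3 lowest and small replicate 3 highest, as for Egr1. The log2 difference was -0.72 ± 0.18 (SE, 95% interval -1.14 to -0.29; limma adjusted p = 0.0862). Groups that were apart with the large tumors lower were found for 2 of the 8 genes, Egr1 and Zfp36, against 13.6% of all genes.

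That separation appeared only after normalization. On the signals as deposited, Egr1 ranged from 1096 to 1482 in large and from 939 to 2264 in small tumors, and Zfp36 from 659.9 to 960.8 and from 655 to 1172. The groups were apart for 0 of the 8 genes on that scale, where the share over all genes was not counted. Small replicate 1, the dimmest array of the series (95th percentile of signal 949, against 1477 to 1997 on the other arrays), had the lowest deposited signal of 7 of the 8 genes, all but Atf3. After normalization it was the lowest array for 0 of the 8 and the highest for 2. Without small replicate 1, the log2 difference was -0.94 for Egr1 (limma adjusted p = 0.101), -0.70 for Zfp36 (adjusted p = 0.184) and -0.61 for Junb (adjusted p = 0.325). In the authors' processed values, Egr1 ranged from 892 to 1123 in large and from 1514 to 2401 in small tumors, and Zfp36 from 527 to 694 and from 801 to 1169, so both genes separated the groups there too. The share of all genes apart in those values was not counted either.

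The 4 AP-1 subunits had unlike patterns. Junb, which pairs with Fos proteins and restrains some actions of Jun, had log2 signals of 9.63, 9.36 and 9.25 in large tumors and 10.24, 9.57 and 10.46 in small ones. Large replicate 1 was above small replicate 2, and small replicates 1 and 3 were above every other array. The log2 difference was -0.68 ± 0.24 (SE, 95% interval -1.25 to -0.11; limma adjusted p = 0.167). Without small replicate 2 it was -0.94 ± 0.16 and was called (limma adjusted p = 0.0482, the lowest among 17 alternatives, which reached 0.386). That fit called 300 of the 10523 genes, against 260 in the reported fit.

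Jun, the partner common to most AP-1 dimers, had log2 signals of 7.70, 7.93 and 7.65 in large tumors and 8.07, 7.29 and 8.09 in small ones. The small tumors held both the 2 highest arrays and the lowest. The difference of -0.06 ± 0.23 (SE) had a 95% interval of -0.61 to 0.49 (limma adjusted p = 0.916), so that changes in either direction lie within the error.

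Fos, which binds DNA as a partner of Jun proteins and not alone, had log2 signals of 8.75, 10.08 and 9.73 in large tumors and 9.55, 8.91 and 9.53 in small ones. The highest and the lowest array were both large tumors. The difference was 0.19 ± 0.36 (SE, 95% interval -0.66 to 1.04; limma adjusted p = 0.796).

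Fosb, a close relative of Fos, lay near the background of the arrays, with deposited signals of 119 to 251 where array medians were 104 to 128. It was not detected in large replicate 1. Its log2 signal was 4.89, 6.63 and 5.60 in large tumors and 5.75, 5.62 and 7.33 in small ones. Large replicate 2 and small replicate 3 stood above the rest, 1 from each group. The difference was -0.53 ± 0.58 (SE, 95% interval -1.90 to 0.85; limma adjusted p = 0.638), the widest interval of the 8. Without small replicate 3 it was 0.02.

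Atf3, a stress-induced factor of the CREB family that also pairs with Jun proteins, had log2 signals of 7.24, 7.49 and 7.31 in large tumors and 7.91, 6.89 and 7.70 in small ones. As for Jun, the small tumors spanned the large ones, with small replicate 2 lowest of all. The difference was -0.15 ± 0.26 (SE, 95% interval -0.77 to 0.47; limma adjusted p = 0.783).

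Dusp1, a phosphatase that inactivates MAP kinases, had log2 signals of 10.25, 10.14 and 10.01 in large tumors and 10.73, 10.07 and 10.58 in small ones. Small replicates 1 and 3 were above all large tumors, and small replicate 2 was among them. The difference was -0.33 ± 0.19 (SE, 95% interval -0.77 to 0.11; limma adjusted p = 0.336).

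**Figure D2:**
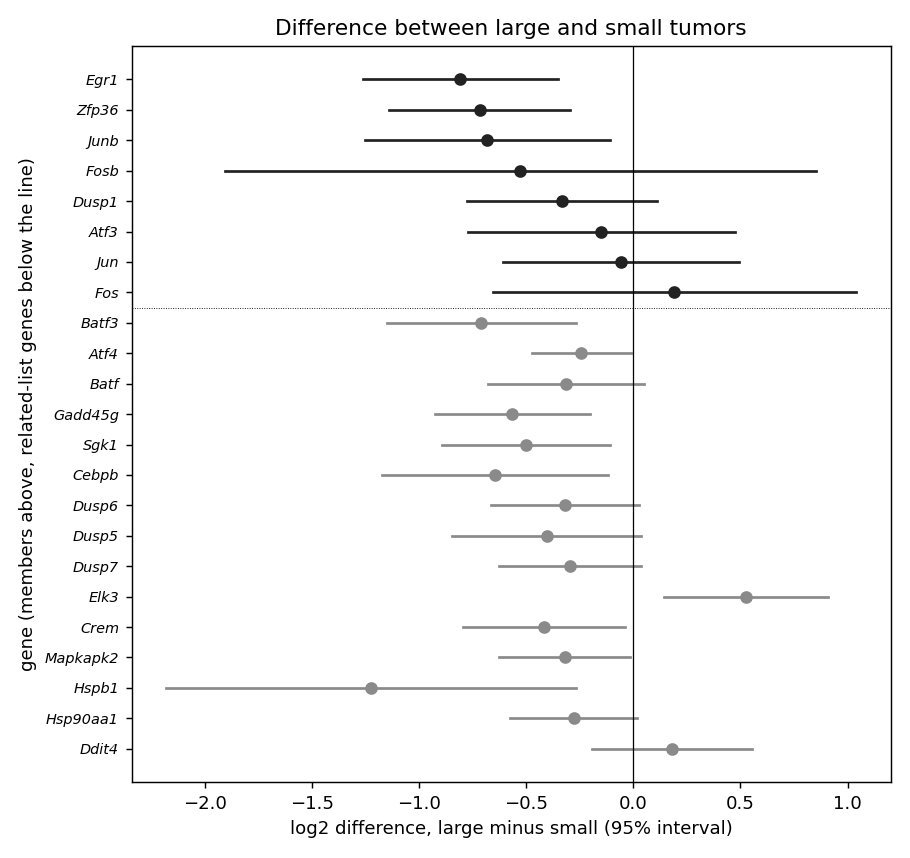
Log2 difference (horizontal axis, large minus small) with its 95% interval for the 8 immediate early genes (black, above the dotted line) and for 15 genes of related lists (grey). The intervals of Egr1, Zfp36 and Junb lie below 0 before adjustment for the number of genes tested, and those of Fosb, Dusp1, Atf3, Jun and Fos include 0.

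The spread among tumors of the same size was large for these genes. The SD within groups (pooled over both groups, log2 scale) had a median of 0.35 over the 8 genes and 0.18 over all genes tested. It was above the median of all genes for each of the 8, from the 67.9th percentile for Zfp36 to the 98.3rd for Fosb, with Fos at the 96.3rd. The range over the 6 arrays had a median of 1.20 for the 8 genes and 0.58 for all genes. The SD was larger in small than in large tumors for 7 of the 8, all but Fos, and for 59.5% of all genes. Atf3 had an SD of 0.54 in small and 0.13 in large tumors, and Jun had 0.45 and 0.15. Differences in SD were not tested, since each SD rests on 3 arrays.

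Several of the genes had the same array highest or lowest. An array's place also carries the difference between tumor sizes. How much of the spread within groups was shared among the genes was not tested. Small replicate 3 was the highest array for 5 of the 8 genes (Fosb, Jun, Junb, Egr1 and Zfp36), small replicate 1 for 2 (Atf3 and Dusp1) and large replicate 2 for Fos. Large replicate 3 was the lowest array for 4 (Junb, Egr1, Dusp1 and Zfp36), and large replicate 1 (Fos and Fosb) and small replicate 2 (Jun and Atf3) were lowest for 2 each. After each gene was centred on its own mean, the mean of the 8 genes was -0.36, 0.07 and -0.28 in large tumors and 0.26, -0.24 and 0.56 in small ones on the log2 scale. Small replicate 2 thus lay within the range of the large tumors in this mean, and large replicate 2 lay between the small ones.

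**Figure D3:**
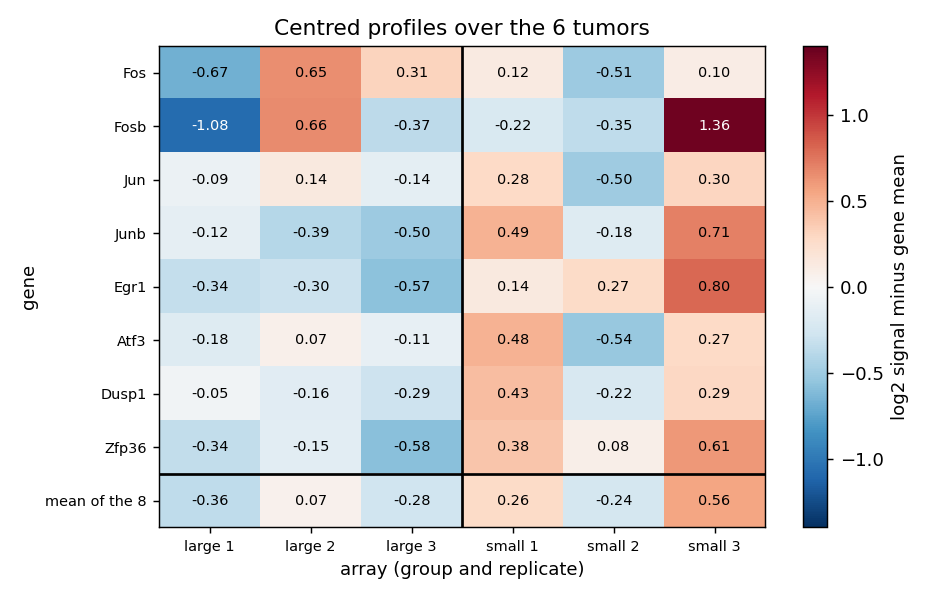
Log2 signal of each immediate early gene minus its own mean over the 6 arrays (colour and printed value), with arrays in columns and the mean of the 8 genes in the bottom row. Small replicate 3 is above the gene's mean for all 8 genes, and small replicate 2 is below it for all but Egr1 and Zfp36.

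Among the 28 pairs of these genes, likeness was measured as the root mean square distance between centred profiles over the 6 arrays, which describes these arrays alone. The closest pair was Jun and Atf3 (0.10), followed by Egr1 and Zfp36 (0.16). Fosb was at a distance of at least 0.62 from every other gene, and Fos of at least 0.38. The most distant pair was Fosb and Dusp1 (0.74). The genes outside the list that lay closest to the mean profile of the 8 were Sema7a (0.08), Csrnp1 (0.10), Ehd1 (0.11), Stmn1 (0.11) and Nfkbia (0.12), where the median distance over the other genes tested was 0.38. These 5 were picked for their small distances. Stmn1 was dim, at log2 5.49 to 6.19, within the 4.89 to 7.33 of Fosb, which lay near background. The 8 genes themselves lay at 0.20 (Jun) to 0.54 (Fosb) from that mean, with Fos at 0.43. Csrnp1 and Nfkbia stood on the list of other immediate early genes below. None of the 5 was called between sizes (limma adjusted p = 0.184 to 0.27). Nfkbia, the inhibitor that holds NF-kB in the cytoplasm, had log2 signals of 8.02, 8.22 and 7.88 in large tumors and 8.58, 8.12 and 8.63 in small ones, again with small replicate 2 among the large tumors.

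Related lists gave the same picture of no called gene. Of 48 other immediate early genes, 41 were tested and 0 were called by limma. At an unadjusted p under 0.05, 11 were lower in large tumors (26.8%, against 10.2% of all genes) and 0 were higher. This list too was chosen with earlier results of these data known. Of the 41, 28 had a negative and 13 a positive difference, and the median was -0.20. Gadd45g, a growth arrest gene, was at -0.56 ± 0.15 (limma adjusted p = 0.0995), with 9.24 to 9.45 in large and 9.64 to 10.09 in small tumors on the log2 scale. Its other detected probe gave -0.35. Cebpb, a factor of inflammatory and acute phase genes, was at -0.65 ± 0.22 (limma adjusted p = 0.157), and the kinase gene Sgk1 was at -0.50 ± 0.16 (limma adjusted p = 0.145).

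Of 13 further AP-1 family genes, 10 were tested and 0 were called by limma, with a median of -0.30. At an unadjusted p under 0.05 (limma), 2 of the 10 were lower (20%, against 10.2% of all genes) and 0 were higher. Batf3, a factor that dendritic cells of the cross-presenting type need, was at -0.71 ± 0.18 (limma adjusted p = 0.0944), and its other detected probe gave -0.37. Batf, its relative in lymphocytes, was at -0.31 ± 0.15 (limma adjusted p = 0.274). Atf4, the factor of the integrated stress response, was at -0.24 ± 0.10 (limma adjusted p = 0.204), but the gene's remaining kept probe had a positive difference of 0.39.

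Genes that set or damp MAP kinase activity were also not called. Of 14 feedback inhibitors, 11 were tested, 0 were called and 0 had an unadjusted p under 0.05 (limma), with a median of -0.08. Dusp6, the ERK phosphatase that tracks ERK output, was at -0.32 ± 0.14 (limma adjusted p = 0.25), but its other detected probes disagreed, at -0.23 and 1.03. Dusp5 and Dusp7 were at -0.40 ± 0.19 and -0.30 ± 0.14. Of 25 genes of the kinase cascade and the factors it activates, 14 were tested and 0 were called, with a median of -0.12. At an unadjusted p under 0.05 (limma), 1 of the 14 was higher and 2 were lower (14.3%, against 10.2% of all genes). Elk3, a partner of serum response factor, had a positive difference of 0.53 ± 0.16 (limma adjusted p = 0.128), while Crem, of the CREB family, was at -0.42 ± 0.16, with other detected probes at -0.13 and 0.04, and the kinase gene Mapkapk2 was at -0.32 ± 0.13. The summed normalized signal, in which the brightest genes weigh most, was lower in every large tumor than in any small one for 4 related lists. It was 10425 to 11206 in large and 11715 to 13572 in small tumors for the feedback inhibitors, and 15704 to 15816 against 16436 to 17834 for the cascade. For the other immediate early genes it was 37978 to 38753 against 41760 to 46608, and for the further AP-1 genes 9898 to 10389 against 11269 to 12527. These sums were not tested. Much of the feedback inhibitor sum came from Dusp6 (log2 12.37 to 13.00) and much of the further AP-1 sum from Atf4 (12.20 to 12.54). For each of these genes another detected probe had a positive difference, 1.03 for Dusp6 and 0.39 for Atf4. The sums without them were not computed, so they do not describe the lists as a whole.

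Heat shock and handling stress genes were counted because they can be induced with immediate early genes. Of 14 listed, 13 were tested and 0 were called, with a median of -0.08. At an unadjusted p under 0.05 (limma), 1 of the 13 was lower (7.69%, against 10.2% of all genes) and 0 were higher. Their summed signal overlapped between groups, at 30926 to 33644 in large and 32797 to 36011 in small tumors. The gene with the unadjusted p under 0.05 was Hspb1, a small heat shock protein, with log2 signals of 9.25, 8.81 and 7.89 in large tumors and 9.89, 9.32 and 10.41 in small ones. Its difference was -1.22 ± 0.40 (SE; limma adjusted p = 0.146). Hsp90aa1, the inducible form of the chaperone, was at -0.28 ± 0.12 (limma adjusted p = 0.246), and its other detected probe gave 0.10. Ddit4, an inhibitor of mTOR induced by stress, was at 0.18 ± 0.16.

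All 9 melanoma markers (Pmel, Tyr, Tyrp1, Dct, Mlana, Sox10, Mitf, Gpr143 and Slc45a2) were detected, with a summed normalized signal of 113675 to 120270 in large and 103932 to 110241 in small tumors and 0 called. Macrophage and monocyte markers were high on the same arrays as several immediate early genes. Of 12 listed, 9 were tested and all 9 were negative, against 50.1% of all genes. At an unadjusted p under 0.05 (limma), 7 of the 9 were lower, against 10.2% of all genes. Only Aif1 was called lower, where 1.68% of all genes were. The summed signal of the 9 was 8784, 6177 and 6873 in large tumors and 12987, 8029 and 12069 in small ones, so the groups overlapped. It was highest in small replicates 1 and 3, as for Jun, Junb, Atf3, Dusp1 and Zfp36. Itgam had a named probe but was not kept. Skeletal muscle markers (13 of 14 tested, 11 called lower) separated the groups, at 11543 to 16491 in large and 35432 to 51042 in small tumors. Of 11 T cell markers 7 were tested and 4 were called lower, and Cd8b1 alone among the 7 had a positive difference. Each of the other 6 was lower in every large tumor than in any small one, against 13.6% of all genes. In large tumors these 6 were dim, at log2 4.50 to 5.95, where Fosb at 4.89 was not detected. A gene could enter the test through detection on the 3 small arrays alone, which favours lower values in large tumors. How far this shaped the separation was not tested. The summed signal of the 6, with Cd8b1 left out after seeing the data, was 190 to 239 in large and 449 to 782 in small tumors. With Cd8b1, which gave 72.8% to 93.1% of the sum, it overlapped, at 2460 to 2800 against 2225 to 2889. Markers of keratinocytes, endothelium, fibroblasts, neutrophils, adipocytes and red blood cells held 0 called genes, and the summed signal of each of these 6 lists overlapped between groups. At an unadjusted p under 0.05, 2 of 3 adipocyte markers were lower and 1 of 5 neutrophil markers was higher in large tumors, and 0 of the other 4 lists. Over all genes, 10.2% were lower at that limit. Single arrays stood far apart for keratinocyte markers, which summed to 506 on small replicate 1 and 57420 on large replicate 1, and for neutrophil markers, which summed to 4620 on large replicate 1 and 376 to 1192 on the other arrays. The part of these cell types in the values of the immediate early genes was not tested.

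**Figure D4:**
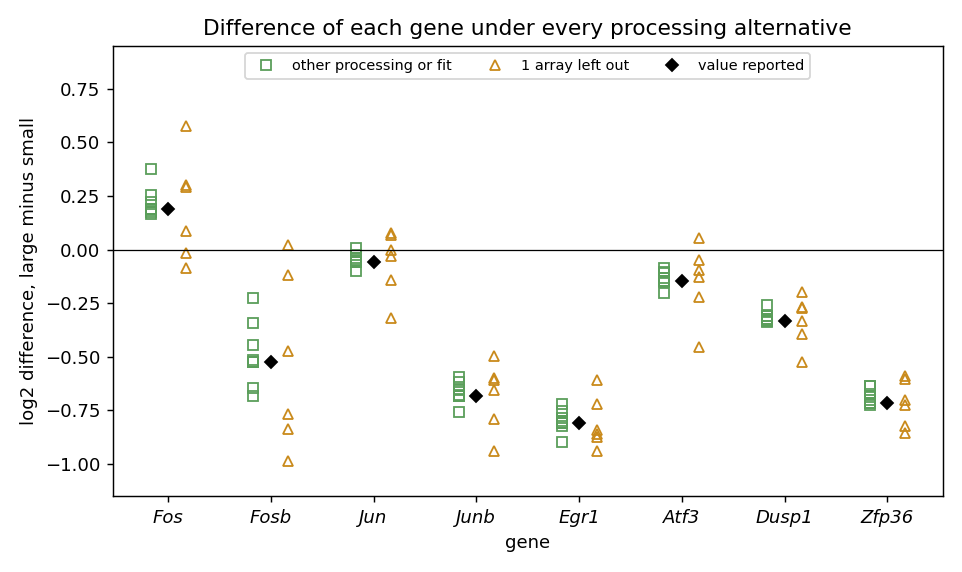
Log2 difference (vertical axis, large minus small) of each immediate early gene as reported (black), under other processing or fits (green squares) and with 1 array left out (orange triangles). Egr1, Zfp36, Junb and Dusp1 stay below 0 in all of them, while Fos, Fosb, Jun and Atf3 cross 0. Some of the green squares repeat the reported value by design.

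Egr1, Zfp36, Junb and Dusp1 kept a negative difference under all 17 alternatives, from -0.94 to -0.61 for Egr1, -0.85 to -0.59 for Zfp36, -0.94 to -0.50 for Junb and -0.53 to -0.20 for Dusp1. For Egr1 and Zfp36 the sign could not turn when an array was left out, because their groups did not overlap. The detection filters, the mean of probes, the trended robust prior and the replicate block left these differences as reported by design. Each gene has 1 probe, and the prior and the block alter only the error, so those alternatives say nothing about the sign. Fos ranged from -0.09 to 0.58, Fosb from -0.99 to 0.02, Jun from -0.32 to 0.08 and Atf3 from -0.45 to 0.06. With the trended and robust prior, Egr1 and Zfp36 were called (limma adjusted p = 0.0305 and 0.0332, the lowest among the 17 alternatives, which reached 0.249 and 0.255). That fit called 656 of the 10523 genes, against 260 in the reported fit.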

How the data were processed

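Probe intensity and a detection p-value for each of 45281 probes and 6 arrays were deposited, per the file headers, without background subtraction. GenomeStudio is named in the submitters' processing notes, with no version in the sources used here. The authors' processed intensity table (20346 probes, floor 28.8), whose background correction and normalization are not stated, served as an alternative.

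Signals were background-corrected from the detection p-values, quantile-normalized and log2-transformed with neqc (offset 16; limma 3.58.1, R 4.3.3). Probes detected (p under 0.05) on at least 3 arrays were kept (19120, of which 16256 had 1 symbol), and the brightest probe stood for each of 10523 genes. Names came from the platform annotation, which covers probes of the authors' table only. Of the table's probes, 17300 carried 1 symbol, 11 carried several and 3035 none here; 17278 matched a RefSeq table (GRCm38.p6) and 0 symbols changed. No pair of arrays shared a signal value at any probe (0%).

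Groups were compared with lmFit and eBayes, with Benjamini-Hochberg adjustment over all genes; calls were made below an adjusted p of 0.05. With 3 arrays a group, precision is limited by their number. The alternatives were 4 other normalizations, the authors' values, 2 detection filters, the mean of probes, a trended robust prior, array weights, a block on replicate number and leaving out single arrays (values normalized on all 6 arrays). Named genes were every member, the 3 genes of each related list with the smallest p and the 5 nearest profiles; others are named as exceptions to a count. Members and lists were chosen with earlier results of these data known.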

Additional observations from a re-analysis of the deposited data

How the results depend on the processing

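The count of called immediate early genes was 0 in the reported fit. It was 2 with the trended robust prior (Egr1 and Zfp36), 1 with array weights (Egr1, limma adjusted p = 0.0408, against 0.0305 to 0.249 over its 17 alternatives), and 0 to 1 with an array left out (Junb without small replicate 2). Over all genes, 656 were called with that prior, 574 with array weights and 300 without small replicate 2, against 260 in the reported fit. The count of called immediate early genes was 0 under the other 9 alternatives that keep all arrays, with 3 of the genes at an unadjusted p under 0.05 (limma) in each. The called genes of the related lists numbered 0 as reported, 1 with the trended robust prior (Gadd45g) and 0 to 1 with an array left out (Gadd45b without small replicate 2, named after its value was seen). The sign turned for Jun with the authors' processed values (0.0084), and, with an array left out, for Jun (-0.32 to 0.079), Fos (-0.087 to 0.58), Fosb (-0.99 to 0.022) and Atf3 (-0.45 to 0.056); the cause was not tested. The median log2 difference of the 8 genes stayed negative, from -0.68 without small replicate 2 to -0.16 without small replicate 3, and the median SD within groups was 0.25 to 0.35 over the other normalizations. Without Fosb, which was not detected on all 6 arrays, the median was -0.33 over 7 genes.

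The labels do not say whether replicate numbers pair the tumors. Deviations from the group means correlated at -0.55, -0.07 and -0.45 across genes for numbers 1 to 3. With 3 arrays a group these values depend on each other, so they cannot decide the question. With the replicate block, 109 of all genes were called against 260, and 0 of the 8 (Egr1 at -0.81, limma adjusted p = 0.15). Over all genes, leaving out large replicate 1 or 3 gave 0 calls (limma, 2303 and 1591 at an unadjusted p under 0.05), and 656 with the trended robust prior, 574 with array weights 402 with detection on all 6 arrays and 404 with quantile normalization of uncorrected signals. Fosb lies near background and has the widest interval of the 8 genes; whether the one sets the other was not tested.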
